A study of Mus musculus with 6 samples.

Results

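Transglutaminases, peptidylarginine deiminases, caspase-14 and the aspartic protease Asprv1 are enzymes that finish the surface of the epidermis. As a keratinocyte becomes a dead corneocyte, transglutaminases crosslink proteins such as loricrin, involucrin and the small proline-rich proteins into the cornified envelope under the cell membrane. Filaggrin is made as a long polyprotein, is cut by Asprv1 and other proteases into single units that bundle keratin, has arginines turned into citrullines by deiminases, and is broken down in the cornified layer with the help of caspase-14. The 9 genes described here are Tgm1, Tgm2, Tgm3, Tgm5, Padi1, Padi2, Padi3, Casp14 and Asprv1. They were taken by symbol from a table of 30386 genes, and all 9 symbols were found once each.

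The study compared epidermis of the genotype p63alphaKO (3 libraries) with wild type (WT, 3 libraries). All samples were dorsal skin epidermis of mouse embryos at E18.5, freed from dermis with Dispase and dissociated with Accutase, and no further allele or treatment is given for either group. p63, encoded by Trp63, is the transcription factor that founds and maintains stratified epithelium, and its alpha forms have the longest carboxy terminus; the sources used here do not describe the construction of the p63alphaKO allele. The labels do not state whether replicates were separate embryos, so p-values measure the spread between these libraries only.

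Levels are in CPM (the reads of a gene scaled to the total of its library), and reads come from the 3' ends of mRNAs, so CPM is not divided by transcript length. Fold changes compare p63alphaKO with WT (p63alphaKO over WT) as differences of log2(CPM + 1), each with a standard error (SE). A gene counted as called when limma gave an adjusted p under 0.05, with Benjamini-Hochberg adjustment over 7464 genes whose mean reached 10 CPM. The table held 3350442 to 3539604 reads per p63alphaKO library and 2564407 to 4474764 per WT library, so 10 CPM stood for 25.7 to 44.8 reads. Trp63, the targeted gene, was at 143, 146 and 136 CPM in p63alphaKO replicates 1, 2 and 3, against 63.9, 71.7 and 87.2 CPM in WT replicates 1, 2 and 3. Reads were summed over the whole gene, so this value cannot test whether the alpha forms were gone. The keratinocyte markers Krt5, Krt14, Krt1, Krt10, Lor and Flg together held between 104655 and 111806 CPM in p63alphaKO libraries and between 104708 and 113945 CPM in WT libraries. Of 7 fibroblast markers, all 7 had a lower mean in p63alphaKO, with summed levels between 231 and 533 CPM in p63alphaKO libraries and between 1968 and 4583 CPM in WT libraries. These libraries pool all cells left after the dermis was removed. Fewer cells of a type in the tissue, fewer carried over at separation and less RNA per cell cannot be told apart.

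None of the 9 enzyme genes was called, while the filaggrin protease gene Asprv1 was the member with the smallest p and the only tested member whose groups did not overlap. Of the 9 members, 6 passed the minimum of 10 CPM (Tgm1, Tgm3, Tgm5, Padi1, Casp14 and Asprv1), and Tgm2, Padi2 and Padi3 did not. Of the 6 tested, limma called 0, against 1.65% of all tested genes (0.469% higher and 1.18% lower in p63alphaKO). Of all genes, 35 were called higher and 88 lower, a split that was 48 to 65 with TMM, 69 to 64 with upper quartile and 42 to 66 with quantile scaling. On whole reads recovered from the CPM, edgeR and DESeq2 also called 0 members, against 1.1% and 4.25% of all genes. At an unadjusted p under 0.05 there was 1 member, Asprv1, against 15.6% of all genes. The groups did not overlap for 1 of the 6, again Asprv1, against 21% of all tested genes in either direction and 7.6% with p63alphaKO higher. The 6 members had 2 positive and 4 negative log2 fold changes with a median of -0.053. All tested genes had 3002 positive and 4462 negative ones with a median of -0.085. Shares this close to the background are no result about the members as a set.

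**Figure D1:**
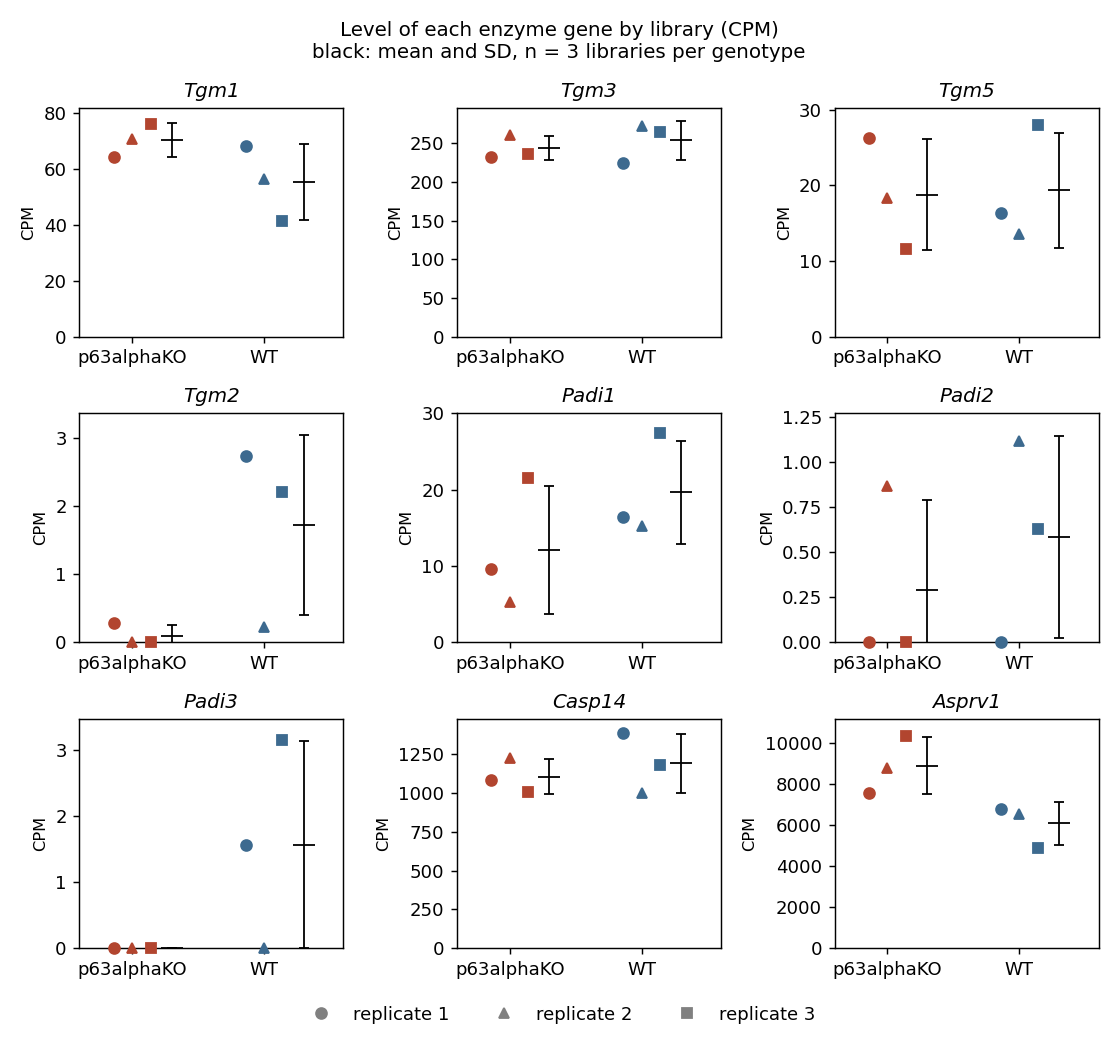
CPM of each of the 9 enzyme genes in the 3 p63alphaKO libraries (red, left) and the 3 WT libraries (blue, right), each panel with its own linear axis from 0. Symbols mark the replicate number and black bars the mean and SD; the Asprv1 panel is the one above 10 CPM whose groups do not overlap, with p63alphaKO from 7574 CPM and WT up to 6813 CPM.

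Asprv1 encodes a retroviral-like aspartic protease of the granular layer that cuts the linkers of profilaggrin. It is a single-exon gene (ENSMUSG00000033508, chromosome 6, 86628164 to 86629710, plus strand, mm10) and was the most abundant of the 9 as a share of reads. Asprv1 was at 7574, 8790.5 and 10374 CPM in p63alphaKO replicates 1, 2 and 3, against 6813, 6549 and 4891 CPM in WT replicates 1, 2 and 3. Every p63alphaKO library thus lay above every WT library, with the closest values in the replicates numbered 1 of each genotype and the lowest value in WT replicate 3. The transcript made up 0.891% ± 0.140 of all reads in p63alphaKO and 0.608% ± 0.104 in WT (SD, n = 3 each), and by mean level it ranked 9 among all genes in p63alphaKO and 13 in WT. Its log2 fold change was 0.55 (SE 0.17, 95% interval 0.18 to 0.93), which is 1.47-fold, and it did not pass the test by limma over all genes (adjusted p = 0.123). The adjusted p was 0.154 by edgeR and 0.0613 by DESeq2. An exact two-sided permutation test of this value gave p = 0.1, the smallest that 3 libraries against 3 can give. With 1 library left out the log2 fold change lay between 0.40, without WT replicate 3, and 0.67, without p63alphaKO replicate 1, and no such fit called it.

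Casp14 encodes caspase-14, a protease of the cornifying layers that takes part in the breakdown of filaggrin to free amino acids. Casp14 (ENSMUSG00000005355, chromosome 10, 78711991 to 78718294, minus strand) was at 1086, 1225 and 1006 CPM in p63alphaKO replicates 1, 2 and 3, against 1387, 1003 and 1182 CPM in WT replicates 1, 2 and 3. The groups overlapped, and WT replicates 1 and 2 held both the highest and the lowest of the 6 values. The log2 fold change was -0.099 (SE 0.16, 95% interval -0.44 to 0.25, adjusted p = 0.829 by limma). Its sign was positive, at 0.0081 and 0.038, with TMM and upper quartile factors. The ratio of Asprv1 to Casp14 CPM was 6.98, 7.18 and 10.3 in p63alphaKO replicates 1, 2 and 3, against 4.91, 6.53 and 4.14 in WT replicates 1, 2 and 3. These ratios did not overlap between the genotypes, and no test was made of them. The groups of Asprv1 alone did not overlap either, so the ratio is not a separate result.

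Filaggrin itself, the substrate of both proteases, had overlapping groups. Flg was at 19642 ± 3383 CPM in p63alphaKO and 20556 ± 4334 CPM in WT (SD, n = 3 each), and its log2 fold change was -0.059 (SE 0.19, limma adjusted p = 0.925), with a positive sign under TMM and upper quartile factors, in edgeR and in DESeq2. The ratio of Asprv1 to Flg CPM was 0.412, 0.515 and 0.442 in p63alphaKO replicates 1, 2 and 3, against 0.359, 0.380 and 0.192 in WT replicates 1, 2 and 3. The ratio of Casp14 to Flg overlapped between the groups, at 0.0579 ± 0.0145 in p63alphaKO and 0.0592 ± 0.0134 in WT. Flg was chosen for these ratios as the substrate, after its values had been seen.

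Tgm1 and Tgm3 encode the main transglutaminases of the epidermis. Tgm1 is anchored to the membrane, starts the envelope, and its human counterpart is mutated in lamellar ichthyosis. Tgm1 (ENSMUSG00000022218, chromosome 14, 55700009 to 55713926, minus strand) was at 64.1, 70.8 and 76.1 CPM in p63alphaKO replicates 1, 2 and 3, against 68.2, 56.3 and 41.2 CPM in WT replicates 1, 2 and 3. The groups overlapped only through WT replicate 1, which lay above p63alphaKO replicate 1. The log2 fold change was 0.37 (SE 0.22, 95% interval -0.11 to 0.84, adjusted p = 0.459 by limma). It was 0.18 without WT replicate 3 and 0.53 without WT replicate 1. Exons of Tgm1 overlap those of Gm49067 on the other strand, and whether counting used the strand is unknown, so its value is uncertain.

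Tgm3, a cytosolic proenzyme that is cut to become active and that also acts in hair follicles, was the steadiest of the 9. Tgm3 (ENSMUSG00000027401, chromosome 2, 130012349 to 130050399, plus strand) was at 233, 262 and 237 CPM in p63alphaKO replicates 1, 2 and 3, against 225, 272 and 265 CPM in WT replicates 1, 2 and 3. All p63alphaKO values lay inside the WT range, and the coefficient of variation was 6.43% in p63alphaKO and 10.1% in WT. The log2 fold change was -0.057 (SE 0.16, 95% interval -0.40 to 0.29, adjusted p = 0.912 by limma), and its sign was positive with TMM factors (0.049), with upper quartile factors (0.079), in edgeR (0.024) and in DESeq2 (0.038). The interval thus leaves room for a change of up to 1.22-fold upward or to 0.757 of the WT level.

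Tgm5 encodes a transglutaminase of the upper epidermis whose human counterpart is mutated in acral peeling skin syndrome. Tgm5 (ENSMUSG00000053675, chromosome 2, 121046111 to 121085841, minus strand) was at 26.3, 18.4 and 11.6 CPM in p63alphaKO replicates 1, 2 and 3, against 16.4, 13.6 and 28.0 CPM in WT replicates 1, 2 and 3. Each genotype spanned a range of more than 10 CPM and the ranges lay over one another. The log2 fold change was -0.049 (SE 0.36, 95% interval -0.82 to 0.72, adjusted p = 0.971 by limma). Its sign was positive with TMM, upper quartile and quantile scaling, in edgeR and DESeq2, and without p63alphaKO replicate 3 or WT replicate 3 (0.24 in each of these last fits), so no direction can be given for it.

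Tgm2, the tissue transglutaminase found in fibroblasts and endothelium among many cell types, had few reads in either genotype. Tgm2 (ENSMUSG00000037820, chromosome 2, 158116402 to 158146436, minus strand) had 1, 0 and 0 reads in p63alphaKO replicates 1, 2 and 3, against 7, 1 and 7 reads in WT replicates 1, 2 and 3. These are 0.28, 0 and 0 CPM in p63alphaKO, against 2.73, 0.22 and 2.20 CPM in WT. The groups overlapped through WT replicate 2, the deepest library. Over the pooled reads of each genotype the ratio of p63alphaKO to WT was 0.066 (95% exact interval 0.0016 to 0.43, counting error only), and the exact permutation test over libraries gave p = 0.2. In a fit with no filter on low values its adjusted p was 0.319 by limma. The 4 endothelial markers, Pecam1, Cdh5, Kdr and Tie1, all had a lower mean in p63alphaKO, with a summed level between 2.39 and 4.95 CPM in p63alphaKO libraries and between 11.01 and 39.0 CPM in WT libraries, beside the lower fibroblast markers given above. No fibroblast or endothelial marker was at 0 in all libraries of a genotype, and the part of these cells in the Tgm2 reads was not tested. Exons of Tgm2 also overlap those of Rprd1b and Gm20412 on the other strand.

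Summed over Tgm1, Tgm2, Tgm3 and Tgm5, the transglutaminase level overlapped between the genotypes, at 323, 351 and 324 CPM in p63alphaKO replicates 1, 2 and 3, against 312, 343 and 336 CPM in WT replicates 1, 2 and 3. Tgm3 gave 73.2% ± 1.32 of that sum in p63alphaKO and 76.8% ± 4.12 in WT, and Tgm1 gave 21.2% ± 2.0 in p63alphaKO and 16.8% ± 4.80 in WT (SD, n = 3 each). The ratio of Tgm3 to Tgm1 CPM was 3.63, 3.70 and 3.11 in p63alphaKO replicates 1, 2 and 3, against 3.30, 4.84 and 6.42 in WT replicates 1, 2 and 3. WT replicate 1 lay within the p63alphaKO range, and WT replicates 2 and 3 lay above it. Among the other genes of the family, Tgm4, Tgm7 and Epb42 were listed at 0 in all libraries. Tgm6 was at 0.78 CPM in WT replicate 1 and F13b at 0.87 CPM in p63alphaKO replicate 2, each with 0 elsewhere, and F13a1, the blood coagulation factor subunit made by macrophages, was between 0 and 2.26 CPM in p63alphaKO libraries and between 1.95 and 4.02 CPM in WT libraries.

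Padi1 encodes a deiminase of the epidermis and was the only deiminase above the minimum. Padi1 (ENSMUSG00000025329, chromosome 4, 140812983 to 140845778, minus strand) was at 9.60, 5.24 and 21.5 CPM in p63alphaKO replicates 1, 2 and 3, against 16.4, 15.2 and 27.4 CPM in WT replicates 1, 2 and 3. The values overlapped, with p63alphaKO replicate 3 above WT replicates 1 and 2, and those in p63alphaKO replicates 1 and 2 below every WT library. The log2 fold change was -0.81 (SE 0.45, 95% interval -1.76 to 0.14, adjusted p = 0.415 by limma), the largest in size among the tested members, and the reads behind it numbered 18 to 72 in p63alphaKO libraries and 42 to 87 in WT libraries. It was -1.30 without p63alphaKO replicate 3 and -0.37 without p63alphaKO replicate 2. Exons of Padi1 overlap those of Gm13032 on the other strand.

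Padi3, a deiminase of the hair follicle and upper epidermis, had no read in any p63alphaKO library. Padi3 (ENSMUSG00000025328, chromosome 4, 140785365 to 140810648, minus strand) had 0, 0 and 0 reads in p63alphaKO replicates 1, 2 and 3, against 4, 0 and 10 reads in WT replicates 1, 2 and 3. WT replicate 2 was at 0 as well, so the groups overlapped, and the exact permutation test gave p = 0.4. The pooled level in WT was 1.37 CPM, 4.72 times the limit of 3 reads over the 3 p63alphaKO libraries together (0.290 CPM). This figure leaves out the counting error of the WT reads. The exact 95% interval of the ratio of p63alphaKO to WT reached up to 0.298, counting error only. WT replicate 3 held 10 of the 14 reads. Without it the pooled WT level was 0.568 CPM, or 1.95 times the limit, and the interval reached up to 1.03. Without a filter on low values the adjusted p of Padi3 was 0.344 by limma. The inner root sheath keratins of the hair follicle, Krt25, Krt27, Krt28, Krt71, Krt72 and Krt73, had summed levels between 26.8 and 31.7 CPM in p63alphaKO libraries and between 76.1 and 124 CPM in WT libraries. Of the 6, 5 were lower in mean in p63alphaKO, among them Krt73 with 33 reads in each genotype. Krt28 was higher in mean, at 3.28 CPM in p63alphaKO and 2.44 CPM in WT. Of these keratins, Krt71 and Krt25 were tested and both were called lower (log2 fold change -2.15 and -1.66, limma adjusted p = 0.00731 and 0.0140), against 1.18% of all tested genes. None of the 6 was at 0 in all libraries of a genotype, and the part of hair follicle cells in the Padi3 reads was not tested.

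Padi2, a deiminase of muscle, brain and other tissues, had 0, 3 and 0 reads in p63alphaKO replicates 1, 2 and 3, against 0, 5 and 2 reads in WT replicates 1, 2 and 3. Its groups overlapped, and the ratio over pooled reads was 0.42 (95% exact interval 0.071 to 1.86, counting error only). No difference was detectable at this depth. WT replicate 2, the deepest library, held 5 of the 7 WT reads, which is 1.12 CPM, against 0 and 0.63 CPM in WT replicates 1 and 3. It also had the highest summed level of the muscle markers Acta1, Myh3, Tnnc2, Ttn and Des. These markers summed to between 27.4 and 62.0 CPM in p63alphaKO libraries and to 237, 1563 and 259 CPM in WT replicates 1, 2 and 3. All 5 had a lower mean in p63alphaKO, and the 3 tested were called lower by limma, against 1.18% of all tested genes. None of the 5 was at 0 in all libraries of a genotype, and the part of muscle in the Padi2 reads was not tested. Padi4, the deiminase of neutrophils, was at 0.85 CPM in p63alphaKO replicate 1 and at 0 elsewhere, and Padi6, that of the oocyte, was listed at 0 in all libraries. Tgm3, Tgm5, Padi3, Casp14 and Asprv1 have no annotated exon of another gene on the opposite strand, while exons of Padi2 overlap those of Gm13031.

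As shares of reads, the order of the members by mean was Asprv1, Casp14, Tgm3 and Tgm1 in both genotypes, and each of these lay above the next in every library. Tgm5 and Padi1 followed, and their values overlapped within each genotype, so their order was not set. Padi2, Padi3 and Tgm2 were at or below 3.15 CPM in all libraries.

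**Figure D2:**
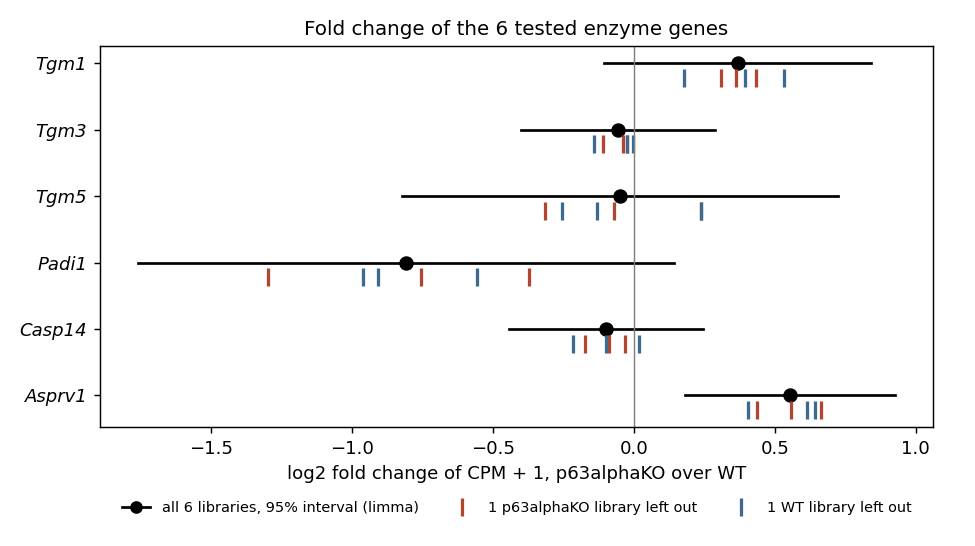
Log2 fold change of CPM + 1, p63alphaKO over WT, of the 6 tested enzyme genes. Dots and black lines are the estimate from all 6 libraries and its 95% interval by limma, and ticks under them are the estimates with 1 p63alphaKO library (red) or 1 WT library (blue) left out; Asprv1 lies at 0.55 with ticks from 0.40 to 0.67, and Padi1 at -0.81 with ticks from -1.30 to -0.37.

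Among the members, Tgm1 and Asprv1 varied most alike over the libraries. Each gene's log2(CPM + 1) values were centred on their own mean over the 6 libraries, and likeness was taken as the root mean square distance between these profiles, a description without a test. The distance was 0.13 between Tgm1 and Asprv1, 0.22 between Tgm3 and Casp14, and 0.33 or more for every other pair of the 6 tested members. In WT replicate 3 both Asprv1 and Tgm1 lay far under their own means, by -0.58 and -0.57, while Tgm5 and Padi1 lay above theirs by 0.60 and 0.91. In p63alphaKO replicate 3, Asprv1 and Tgm1 lay 0.51 and 0.30 above, and Tgm5 was at -0.60. Centring removes the level of a gene but not the size of its variation, so genes that vary little lie near one another whatever their pattern. Tgm3 and Casp14, with root mean square deviations of 0.10 and 0.17, are such genes: they stood on opposite sides of their means in WT replicates 1 and 2, at -0.14 and 0.13 for Tgm3 and 0.28 and -0.19 for Casp14.

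**Figure D3:**
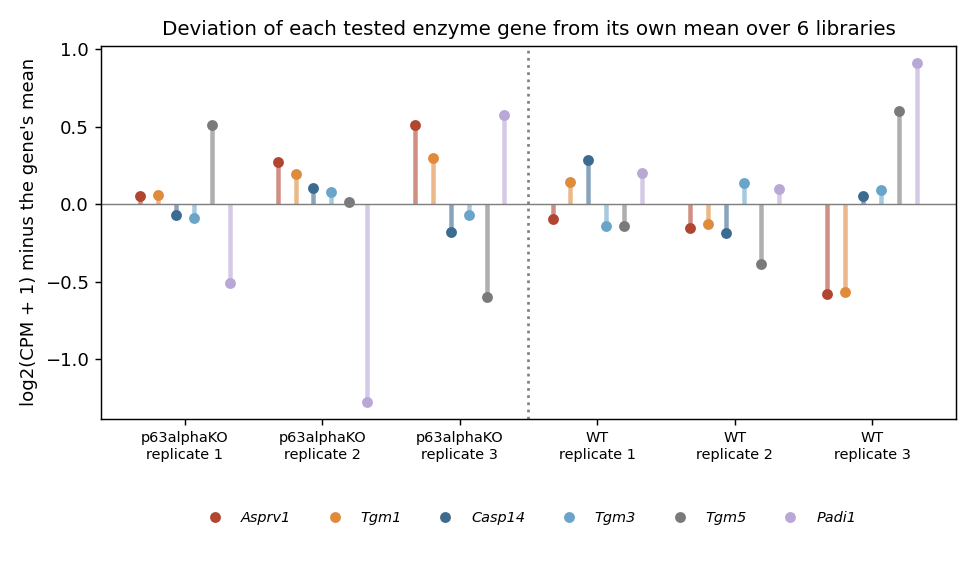
Deviation of log2(CPM + 1) from the gene's own mean over the 6 libraries, for the 6 tested enzyme genes, with p63alphaKO libraries left and WT libraries right of the dotted line. Asprv1 and Tgm1 stand on the same side of 0 in every library but WT replicate 1 and reach -0.58 and -0.57 in WT replicate 3, whereas Casp14 and Tgm3 stay within 0.28 of their means.

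Among up to 3009 candidates averaging 50 CPM or more, those with the profile nearest to that of Asprv1 were Rock2, a kinase of the actin cytoskeleton, Ehd1, a gene of endosome recycling, and Foxp1, a forkhead transcription factor, at distances of 0.059, 0.064 and 0.067 over 6 libraries. Nearest to Tgm1 were the ETS factor gene Elf1, the RNA-binding protein gene Cpeb2 and the dynein regulator gene Ndel1, at 0.053, 0.060 and 0.067. For Tgm3 these were Ppme1, Calr and Mapk3 at 0.040, 0.043 and 0.048, and for Casp14 they were Lasp1, Cebpg and Eef1d at 0.035, 0.047 and 0.048. The genes nearest to Tgm5 (Ndufc2, Atad2b and R3hdm4) lay at 0.18 to 0.20, and those nearest to Padi1 (Sdr16c5, Mtf2 and Gdpd2) at 0.42 to 0.45, and these 2 members also varied most, with root mean square deviations of 0.44 and 0.72.

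The promoters of Asprv1 and Tgm1 are shown because their profiles were nearest to one another, and those of Tgm3 and Tgm5 because they held a motif match. RefSeq sequences (GRCm38.p6) covering 250 bases before to 50 after the annotated start were matched by symbol for 8 of the 9 members, all but Tgm2, with 2 starts for Tgm1. Motifs were sought on both strands, and capitals mark a match. The AP-1 motif was TGANTCA, the TATA box was TATAAA and the Grainyhead-like motif was AACNGGTT. The E-box was CACGTG, and the pair of p63 cores was the 4 letters CATG present again after a gap of 6 bases. The regions are chr6:86627924-86628223 (plus strand) for Asprv1, chr14:55713443-55713742 and chr14:55713039-55713338 (minus strand) for the outer and inner start of Tgm1, chr2:130012090-130012389 (plus strand) for Tgm3 and chr2:121085792-121086091 (minus strand) for Tgm5, each printed 5′ to 3′ on the strand of its gene.
Asprv1: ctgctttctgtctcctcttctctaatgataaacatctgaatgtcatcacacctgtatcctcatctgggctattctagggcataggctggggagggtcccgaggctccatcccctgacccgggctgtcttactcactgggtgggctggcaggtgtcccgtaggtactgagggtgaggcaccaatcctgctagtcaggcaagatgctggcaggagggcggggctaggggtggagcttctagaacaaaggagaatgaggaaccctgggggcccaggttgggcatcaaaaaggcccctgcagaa
Tgm1, outer start: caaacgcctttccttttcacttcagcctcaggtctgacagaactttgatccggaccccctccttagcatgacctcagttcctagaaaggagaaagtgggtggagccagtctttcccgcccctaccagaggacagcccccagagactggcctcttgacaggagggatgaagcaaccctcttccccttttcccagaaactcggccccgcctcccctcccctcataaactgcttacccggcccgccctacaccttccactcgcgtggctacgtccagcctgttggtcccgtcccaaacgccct
Tgm1, inner start: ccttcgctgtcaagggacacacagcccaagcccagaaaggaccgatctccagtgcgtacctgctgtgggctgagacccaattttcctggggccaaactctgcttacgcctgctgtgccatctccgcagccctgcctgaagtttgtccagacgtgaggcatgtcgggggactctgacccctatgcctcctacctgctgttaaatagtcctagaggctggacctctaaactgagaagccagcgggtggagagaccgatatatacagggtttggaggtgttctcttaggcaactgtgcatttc
Tgm3: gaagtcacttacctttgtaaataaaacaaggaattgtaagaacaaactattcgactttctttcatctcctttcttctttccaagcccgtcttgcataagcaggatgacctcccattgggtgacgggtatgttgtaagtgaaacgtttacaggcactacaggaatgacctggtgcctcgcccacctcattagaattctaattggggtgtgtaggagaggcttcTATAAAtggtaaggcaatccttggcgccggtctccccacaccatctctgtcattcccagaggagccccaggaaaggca
Tgm5: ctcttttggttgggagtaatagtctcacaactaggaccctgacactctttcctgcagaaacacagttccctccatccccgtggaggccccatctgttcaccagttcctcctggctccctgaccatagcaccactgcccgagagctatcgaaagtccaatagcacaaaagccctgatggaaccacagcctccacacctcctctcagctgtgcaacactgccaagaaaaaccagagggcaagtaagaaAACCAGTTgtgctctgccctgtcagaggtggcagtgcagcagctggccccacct
Tgm3 held TATAAA, whose first base lies 28 bases upstream of the annotated start, and 13.6% of the 32851 promoters of this length held that motif on either strand. Tgm5 held a Grainyhead-like match on the strand opposite to the gene (AACCAGTT in the orientation of the gene), a motif found in 2.09% of promoters. This match begins 4 bases before the annotated start and runs across it, and these were the only matches in the 9 member sequences. The AP-1, p63 core pair and E-box motifs, present in 7.81%, 0.712% and 7.15% of promoters, were not matched in these windows, which says only that these letters are not there. No matches overlapped one another.

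The genes that work beside these enzymes were described through lists chosen with earlier results of these data known. Filaggrin, the filaggrin-type genes Flg2 and Hrnr, and the proteases, inhibitors and later enzymes of filaggrin processing gave 15 tested genes of 16. Of these, 0 were called by limma, 11 had positive and 4 negative log2 fold changes, and the median was 0.24 (all tested genes 3002 positive, 4462 negative, median -0.085). At an unadjusted p under 0.05 there were 4 of the 15 (all tested genes 15.6%), and edgeR and DESeq2 also called 0. Furin, a proprotein convertase that cuts profilaggrin, was at 175 ± 50.05 CPM in p63alphaKO and 106 ± 20.6 CPM in WT (log2 fold change 0.70, adjusted p = 0.134). Spink5, which encodes an inhibitor of the epidermal kallikreins, was at 4723 ± 417 CPM in p63alphaKO and 3641 ± 527 CPM in WT (0.38, adjusted p = 0.247), and it was the 1 gene of this list whose groups did not overlap, with p63alphaKO higher (all tested genes 7.6%). Prss8, the membrane serine protease prostasin, had a log2 fold change of 0.57 and the kallikrein gene Klk7 one of 0.34 (adjusted p = 0.287 and 0.318).

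Of the proteins that transglutaminases crosslink, 22 of 24 genes were tested and 1 was called, higher in p63alphaKO (all tested genes 0.469% called higher). That gene was Kprp, which encodes a keratinocyte proline-rich protein. It rose to 1197, 1422 and 1634 CPM in p63alphaKO replicates 1, 2 and 3, against 1005, 580.3 and 446 CPM in WT replicates 1, 2 and 3 (log2 fold change 1.14, SE 0.24, limma adjusted p = 0.0260). Its call was lost without any 1 of the p63alphaKO libraries (adjusted p from 0.0737 to 0.196) and without WT replicate 2 (0.0629). It was also lost with no filter on low values (0.0550), with a minimum mean of 50 CPM (0.0568) and without the mean-variance trend (0.147). Under these filters and without the trend limma called 0 substrates, and without WT replicate 2 it called 2. The list had 17 positive and 5 negative log2 fold changes with a median of 0.27 (all tested genes 3002 positive and 4462 negative). The groups did not overlap, with p63alphaKO higher, for 12 of the 22 (all tested genes 7.6%). Apart from Cnfn and Cdsn, these 12 lie in a single stretch of chromosome 3, from 92080271 to 93564643. Most of the 12, Kprp among them, had their lowest value in WT replicate 3, so the count does not stand for 12 independent genes. Loricrin, the main substrate by mass, was at 13723 ± 2484 CPM in p63alphaKO and 11743 ± 315 CPM in WT (log2 fold change 0.21, adjusted p = 0.590), and was named after its values had been seen. The groups of Lor did not overlap. The number of called substrates was 5 without WT replicate 1, a fit that called 186 of all 7464 tested genes. It was 4 in DESeq2 (Kprp, Rptn, Cnfn and Lce1m), which called 4.25% of all genes. By edgeR, which called 1.1% of all genes, it was 1, the repetin gene Rptn, and not Kprp (edgeR adjusted p = 0.0839). Rptn, Cnfn, Cdsn and Lce1m are named after their values had been seen.

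The enzymes that build the lipid envelope, which transglutaminase 1 attaches to the protein envelope, had positive log2 fold changes in all 8 tested genes, and limma called 0 of them. Over all tested genes, 3002 log2 fold changes were positive and 4462 negative. Of 9 genes 8 were tested, with a median of 0.37, 4 at an unadjusted p under 0.05 (all tested genes 15.6%), and groups that did not overlap for 6 of the 8, with p63alphaKO higher (all tested genes 7.6%). DESeq2 called 1 of them and edgeR 0 (all genes 4.25% and 1.1%). Cers3, a ceramide synthase for very long chains, was at 196 ± 37.2 CPM in p63alphaKO and 123 ± 20.2 CPM in WT (log2 fold change 0.66, adjusted p = 0.0998). Abca12, the lipid transporter of lamellar granules, had a log2 fold change of 0.58, Sdr9c7, a dehydrogenase acting on linoleate-bearing ceramides, one of 0.50, and the lipoxygenase gene Alox12b one of 0.39 (adjusted p = 0.134, 0.175 and 0.297).

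Among 15 tested regulators of epidermal differentiation, 2 were called, both higher in p63alphaKO (all tested genes 0.469%): Trp63 itself (log2 fold change 0.93, SE 0.19, limma adjusted p = 0.0192) and Prdm1. Trp63 is the gene targeted in this genotype, so its call is no result about the other regulators, of which only Prdm1 was called. The repressor gene Prdm1, also known as Blimp1 and active in the granular layer, rose to 466, 621 and 513 CPM in p63alphaKO replicates 1, 2 and 3, against 325, 364 and 265 CPM in WT replicates 1, 2 and 3 (log2 fold change 0.74, SE 0.17, limma adjusted p = 0.0456). Its groups did not overlap, as for 7.6% of all tested genes with p63alphaKO higher. Leaving out p63alphaKO replicate 1, 2 or 3 ended this call (adjusted p = 0.0994, 0.200 and 0.179), as did leaving out WT replicate 1 or 3 (0.0542 and 0.0839), and edgeR did not make it (0.0606). The call of Trp63 likewise ended when p63alphaKO replicate 1, 2 or 3 was removed, at an adjusted p of 0.0998, 0.0971 and 0.0854. Without the mean-variance trend limma called 0 of these regulators, with an adjusted p of 0.0968 for Trp63 and 0.167 for Prdm1. Prdm1 was also lost with no filter (0.0697), a minimum mean of 50 CPM (0.0666) and quantile scaling (0.0597). The list's median was 0.054, with 9 positive and 6 negative log2 fold changes (all tested genes 3002 and 4462). Groups did not overlap for 4 of the 15 with p63alphaKO higher and for 1 with it lower (all tested genes 7.6% higher, 21% in either direction).

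**Figure D4:**
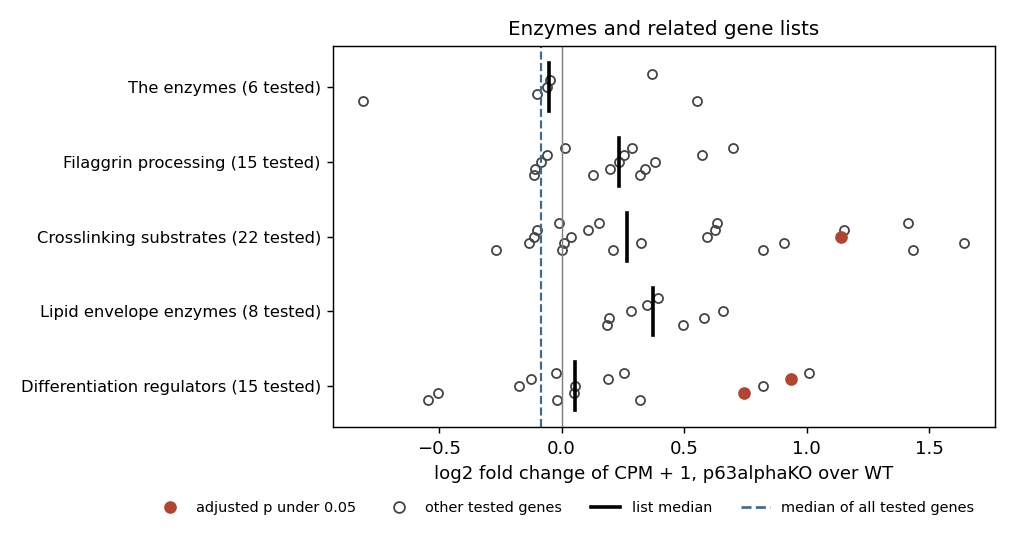
Log2 fold change of CPM + 1, p63alphaKO over WT, of the tested genes of the 9 enzymes and of the related lists, each circle a gene. Filled red circles passed limma's adjusted p of 0.05, black bars are list medians (-0.053 for the enzymes, 0.37 for the lipid envelope enzymes), and the dashed line is the median of all tested genes at -0.085.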

How the data were processed

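RNA of 6 epidermis libraries (3 p63alphaKO, 3 WT) was sequenced from the 3' ends of transcripts. The authors deposited 1 table of CPM per gene and library. STAR, HTSeq and the build mm10 are named in the submitters' processing notes; the sources used here give no version, annotation or strand setting. The labels and the design text name different RNA kits (Qiagen and Zymo), which was not settled. No column was left unused. All deposited CPM values (100%) were whole multiples of 1 read within 0.0055 CPM, so whole reads were recovered for count tests.

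Genes whose mean reached 10 CPM were tested on log2(CPM + 1) with limma 3.58.1 (R 4.3.3, mean-variance trend, genotype only, two-sided), with Benjamini-Hochberg adjustment over 7464 genes. Genes below the minimum have read counts, exact intervals at 95% and exact permutation tests (scipy 1.17.1); intervals and the limit of 3 reads cover counting error only, and reads are not independent molecules. The limma fit was tested on simulated data. Alternatives were other pseudocounts, filters and scalings, limma without a trend, edgeR 4.0.16 (quasi-likelihood), DESeq2 1.42.0, a replicate block, and each library left out.

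The members and gene lists were chosen with earlier results of these data known. Genes named are the 9 members, called genes of each list or otherwise up to 4 with the smallest p, family genes above 0, and the 3 nearest profiles per tested member, with exceptions stated. Positions are 1-based, from the GENCODE annotation of mm10, in which 99.9% of gene IDs (30348 of 30386) were found. Promoter sequences are from RefSeq.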

Additional observations from a re-analysis of the deposited data

How the results depend on the processing

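The number of members called was 0 under every alternative run. The number of all genes called, 123, was 256 with a minimum mean of 1 CPM, 36 with a minimum of 50 CPM, 41 without a trend and 317 in DESeq2, and 37 (without p63alphaKO replicate 3) to 186 (without WT replicate 1) with 1 library left out. Genes called higher and lower, 35 and 88, were 48 and 65 with TMM, 69 and 64 with upper quartile factors, 42 and 66 with quantile scaling and 152 and 165 in DESeq2, and those higher numbered 3 to 90 with 1 library left out. Over all genes tested, the median log2 fold change (-0.085) was 0.018 with TMM and 0.048 with upper quartile factors. Beside this shift, Tgm3 turned positive with TMM (0.049), upper quartile factors (0.079), edgeR (0.024) and DESeq2 (0.038). Tgm5 did so with TMM (0.052), upper quartile (0.080) and quantile scaling (0.15), edgeR (0.040) and DESeq2 (0.051), and ranged from -0.32 to 0.24 with 1 library left out. Casp14 did so with TMM (0.0081) and upper quartile factors (0.038), and ranged from -0.22 to 0.018. Flg did so with TMM (0.048), upper quartile factors (0.078), edgeR (0.031) and DESeq2 (0.047), was at 0 with quantile scaling, and ranged from -0.19 to 0.11. The cause was not tested. With a pseudocount of 5, Tgm2 was at -0.38 and Padi3 at -0.37. Same-numbered libraries deviated together with correlations of -0.023, 0.066 and -0.11, inside the range of differently numbered ones (-0.13 to 0.15). With 3 libraries per genotype this cannot settle whether the numbers pair them. A fit with the replicate block called 127 genes. Depth limits Tgm2, Padi2 and Padi3, where 3 reads stood for 0.670 to 1.17 CPM.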
